A study of Mus musculus with 16 samples.

Results

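The 8 genes described here, Ipw, A230057D06Rik, Mkrn3, Magel2, Ndn, Snrpn, Ube3a and Peg12, belong to the imprinted Prader-Willi and Angelman region of mouse chromosome 7. They were picked by name out of the 24176 gene rows of an expression table, because some of them had stood out in the cortex of Rai1 knockout mice. The cortex values, and every value set against them, therefore chose these genes and are given as a description with no test. The labels do not say whether libraries of a group came from separate animals, so a p-value measures the spread between libraries, which may be technical. Tests are given for the other brain regions and for the libraries labelled wild type outside cortex.

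Rai1 encodes a nuclear protein that binds chromatin, and loss of its human counterpart causes Smith-Magenis syndrome. RNA was sequenced from 3 brain regions of wild-type mice and of mice in which a Cre recombinase deletes Rai1 conditionally. The 16 libraries form 4 sets, each with 2 libraries labelled wild type and 2 labelled knockout: cortex of 3-week-old mice, striatum of 3-week-old and of 12-week-old mice, and hypothalamus of 8-week-old mice. Knockout cortex carried Nestin-Cre;Rai1CKO, knockout striatum Gad2-Cre;Rai1CKO and knockout hypothalamus Vglut2-Cre;Rai1CKO. Nestin-Cre acts in neural progenitors, Gad2-Cre in GABAergic neurons and Vglut2-Cre in a class of glutamatergic neurons, so the cells that lose the gene differ between sets. Cortex and striatum came from F1 mice of the strain B6/FVB and hypothalamus from F1 mice of the strain B6/129. The sources used here do not say whether the wild-type mice carried a Cre or a floxed allele.

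An imprinted gene is read mainly from the chromosome inherited from one parent. In the Prader-Willi region the paternal copy expresses Snrpn, Ipw, Ndn, Magel2, Mkrn3 and Peg12, under an imprinting centre near the start of Snrpn, and loss of paternal expression causes Prader-Willi syndrome in people. Ube3a, at the edge of the domain, is read from the maternal copy in neurons, where a long paternal antisense transcript, Snhg14, silences the other copy, and loss of maternal Ube3a causes Angelman syndrome.

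Values are RPKM, reads scaled to transcript length and library depth, and so are comparable between genes as levels per length. Libraries held 21708241 to 35635562 reads by an estimate from the smallest step between RPKM values, and the 2 libraries of a group correlated across genes (not independent points) with r from 0.971 to 0.991. Rai1 itself went against the labels in 3 of 4 sets. It stood at 4.35 and 5.70 RPKM in wild-type cortex and 4.28 and 3.03 in knockout cortex, but at 3.77 and 3.24 against 6.52 and 7.01 in striatum at 3 weeks, 5.08 and 4.88 against 12.3 and 13.3 at 12 weeks, and 3.68 and 3.99 against 8.47 and 6.52 in hypothalamus. The table has 1 value for the whole gene, and no source used here says which part is deleted, so these values do not check the deletion. Knockout and wild type below are therefore names of the library labels. The tissue labels fitted their markers: Slc17a7, for the vesicular glutamate transporter VGLUT1 of cortical neurons, was at 113 to 129 RPKM in cortex and at most 12.0 elsewhere, the dopamine receptor gene Drd1 was at 63.8 to 111 in striatum and at most 9.66 elsewhere, and the orexin gene Hcrt was at 70.9 to 99.2 in hypothalamus and at most 0.697 elsewhere. In tissue RNA, fewer cells of a type and less RNA per cell cannot be told apart.

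Ipw, A230057D06Rik and Mkrn3 stood higher in knockout cortex, as did Peg12 at levels of a few reads. Ipw, a paternally expressed RNA with no known protein, was at 84.9 and 76.2 RPKM in the wild-type cortex libraries and at 186 and 210 in the knockout ones. Both knockout libraries lay far above both wild-type libraries, and the ratio of the means (80.6 ± 6.17 and 198 ± 16.4, SD, n = 2) was 2.46. A230057D06Rik, a long non-coding RNA whose annotated span holds 7 miRNA genes of the Mir344 cluster, was at 0.805 and 0.743 RPKM in wild-type cortex and at 3.71 and 3.29 in knockout cortex. These wild-type values were the lowest of all 16 libraries, the other 14 lying between 2.53 and 6.09, so that the knockout cortex level sat inside the range of the other sets and the wild-type level outside it. The ratio of the cortex means was 4.52. Mkrn3, which encodes a makorin ring-finger protein known as a brake on the onset of puberty, was at 0.613 and 0.518 RPKM in wild-type cortex and at 1.51 and 1.46 in knockout cortex, a ratio of 2.63. For Mkrn3 it was the knockout cortex that stood apart: the other 14 libraries reached at most 1.003. The plot of RPKM by library shows these 3 patterns side by side.

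**Figure D1:**
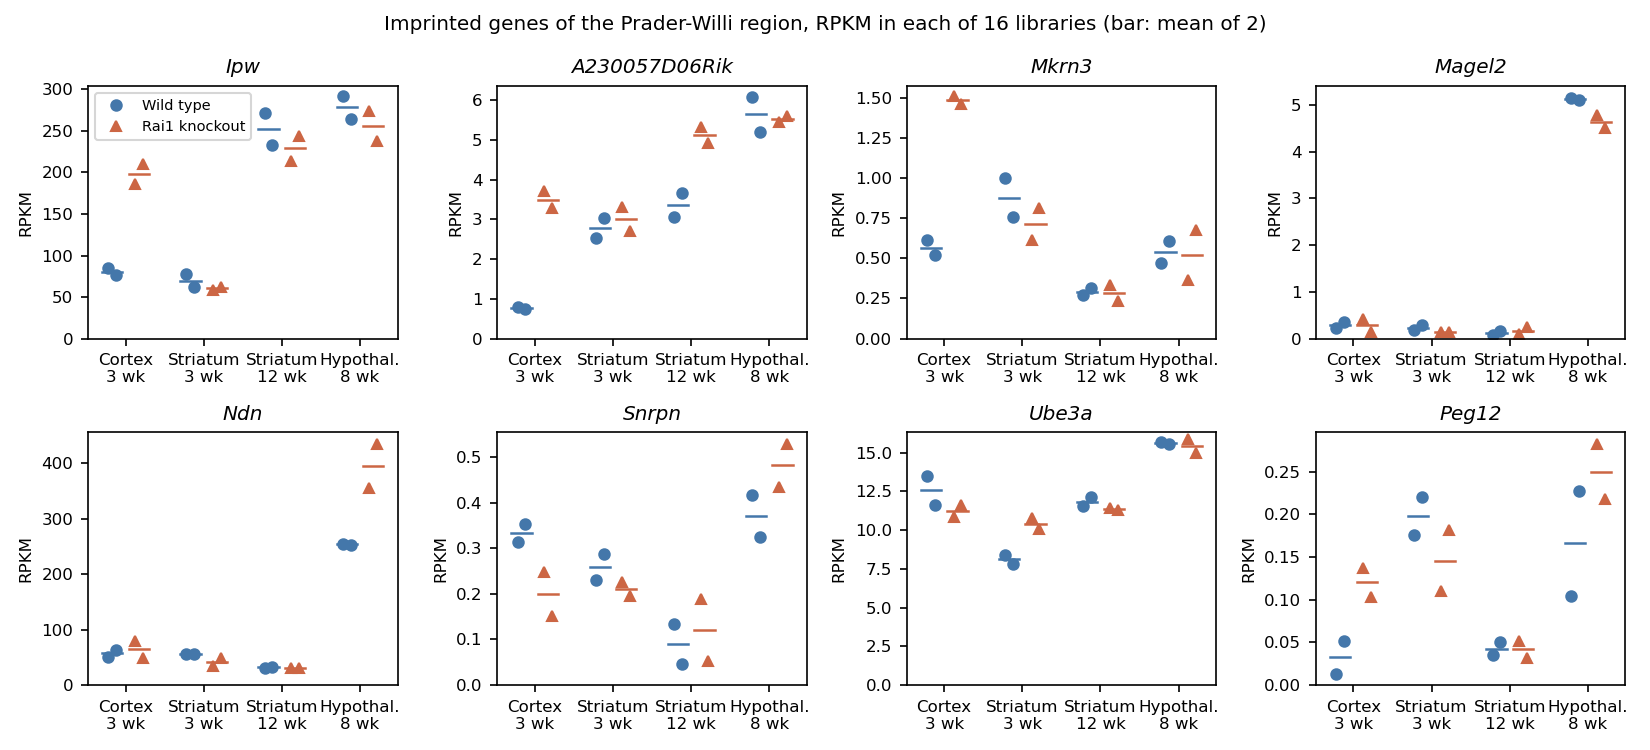
RPKM (vertical axes, linear from 0) of the 8 imprinted genes in each of 16 libraries, by region and age (horizontal axes); circles are libraries labelled wild type, triangles libraries labelled knockout, and bars the means of 2. In cortex the knockout triangles of Ipw, A230057D06Rik and Mkrn3 lie above the wild-type circles. Magel2 (4.50 to 5.15) and Ndn (253 to 435) are highest in hypothalamus. In the 12 other libraries Magel2 is at most 0.427 and Ndn at 30.5 to 79.9.

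On the log2(RPKM + 0.5) scale used for testing, which understates changes of low genes, the cortex differences were 1.29 (SE 0.18) for Ipw, 1.65 (SE 0.14) for A230057D06Rik and 0.90 (SE 0.17) for Mkrn3. The reads behind the lower values were few for Mkrn3, about 44 and 38.5 in wild-type cortex and 85 and 109 in knockout cortex by the step estimate, in which a value can fall midway between whole reads. Of the 8 genes, 6 passed a filter of 1 RPKM in at least 2 libraries and entered the fit. Magel2 reached 1 RPKM in the 4 hypothalamus libraries alone, and Mkrn3 in 3 libraries, both of knockout cortex among them. A call means an adjusted p under 0.05 in that fit over 12348 genes. In cortex the fit called 0.0405% of all tested genes, 0.0162% higher and 0.0243% lower, with Ipw and A230057D06Rik among them, from which nothing is read because the same values chose the genes. Of all 8 genes, 4 had both knockout cortex libraries above both wild-type libraries, the fourth being Peg12, against 9.30% of tested genes. Snrpn and Ube3a had both below, against 21.6% of tested genes.

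The 3 genes lie on 1 chromosome but not side by side. In the RefSeq order Ipw comes before Snrpn, A230057D06Rik after it, and Mkrn3 further on beyond Ndn and Magel2, neither of which was set apart by genotype in cortex. The windows around their annotated starts, from 250 bases before to 50 after, are shown because the 3 genes stood higher together in 1 set of libraries. They come from RefSeq on build GRCm38.p6, which is not the mm9 build of the table, and CG pairs, the sites where DNA methylation marks imprints, are in capitals.
Ipw, chr7:59678829-59679128, minus strand: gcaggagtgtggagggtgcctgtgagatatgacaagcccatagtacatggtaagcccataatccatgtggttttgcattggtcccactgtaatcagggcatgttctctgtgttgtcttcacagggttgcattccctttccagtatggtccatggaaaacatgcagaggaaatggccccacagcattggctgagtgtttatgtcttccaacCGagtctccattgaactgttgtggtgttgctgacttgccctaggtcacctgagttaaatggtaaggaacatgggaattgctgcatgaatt
A230057D06Rik, chr7:61927525-61927824, minus strand: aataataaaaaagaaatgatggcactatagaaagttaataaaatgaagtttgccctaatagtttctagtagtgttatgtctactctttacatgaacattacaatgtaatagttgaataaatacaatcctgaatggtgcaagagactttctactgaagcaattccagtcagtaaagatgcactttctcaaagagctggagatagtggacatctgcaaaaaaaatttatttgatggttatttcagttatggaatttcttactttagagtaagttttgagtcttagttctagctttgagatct
Mkrn3, chr7:62420104-62420403, minus strand: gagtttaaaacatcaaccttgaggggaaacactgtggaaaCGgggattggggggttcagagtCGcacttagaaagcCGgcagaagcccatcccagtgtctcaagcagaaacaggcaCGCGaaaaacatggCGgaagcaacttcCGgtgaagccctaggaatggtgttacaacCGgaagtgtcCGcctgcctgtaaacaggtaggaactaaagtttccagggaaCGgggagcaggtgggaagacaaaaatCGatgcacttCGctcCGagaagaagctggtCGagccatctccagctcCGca
All 8 genes had an entry. The Ipw window holds 1 CG and that of A230057D06Rik none, at the 14.1 and 5.43 percentiles of the 32807 promoter windows of the table, whose median is 7. The Mkrn3 window holds 15, at the 67 percentile. The Mkrn3 window also holds CCGGAAGT at 2 places, counting both strands, a sequence found in 3.89% of windows, and the windows of the other 7 genes hold none. The motifs were chosen after the sequences were seen. The 3 windows thus differ in CG content.

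Outside cortex none of these 3 genes was called by knockout. In striatum at 3 weeks Ipw was at 77.7 and 61.9 RPKM in the wild-type libraries and 58.5 and 62.1 in the knockout ones, which overlap (log2 difference -0.20, SE 0.18, limma adjusted p = 0.648, where the median of all tested genes was -0.13). At 12 weeks it was at 271 and 233 against 214 and 244, again overlapping (-0.14, SE 0.18, limma adjusted p = 0.989). In hypothalamus it was at 292 and 264 against 274 and 238 (-0.12, SE 0.18, limma adjusted p = 1). All 3 estimates lay below 0, with a mean of -0.15 (SE 0.10) and an exact two-sided permutation p of 0.0833 over every arrangement of labels within the sets, where the smallest possible is 0.00926. The cortex difference exceeded this mean by 1.45 (SE 0.20), a description since cortex chose the gene.

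A230057D06Rik differed in 1 further set, without passing the test. In striatum at 12 weeks it was at 3.06 and 3.66 RPKM in the wild-type libraries and at 5.32 and 4.92 in the knockout ones. Both knockout libraries were above both wild-type libraries, with a ratio of means of 1.52 and a log2 difference of 0.54 (SE 0.14, unadjusted p = 0.00188, limma adjusted p = 0.637). Median-ratio scaling gave 0.45 there (limma adjusted p = 0.417). It was at 2.53 and 3.04 against 3.32 and 2.70 in striatum at 3 weeks (0.09, SE 0.14, limma adjusted p = 0.78). Hypothalamus gave 6.09 and 5.2 against 5.44 and 5.62 (-0.02, SE 0.14, limma adjusted p = 1). The knockout difference in striatum was 0.45 larger at 12 than at 3 weeks, which did not pass either (limma adjusted p = 0.532), and the mean outside cortex was 0.20 (SE 0.08, exact permutation p = 0.12). Mkrn3 overlapped between genotypes in all 3 sets. Its values were 1.003 and 0.754 against 0.616 and 0.816 in striatum at 3 weeks, 0.270 and 0.314 against 0.336 and 0.233 at 12 weeks, and 0.470 and 0.606 against 0.362 and 0.677 in hypothalamus. The log2 differences were -0.18, -0.02 and -0.04, and the permutation p of their mean of -0.08 was 0.435 (exact, two-sided).

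**Figure D2:**
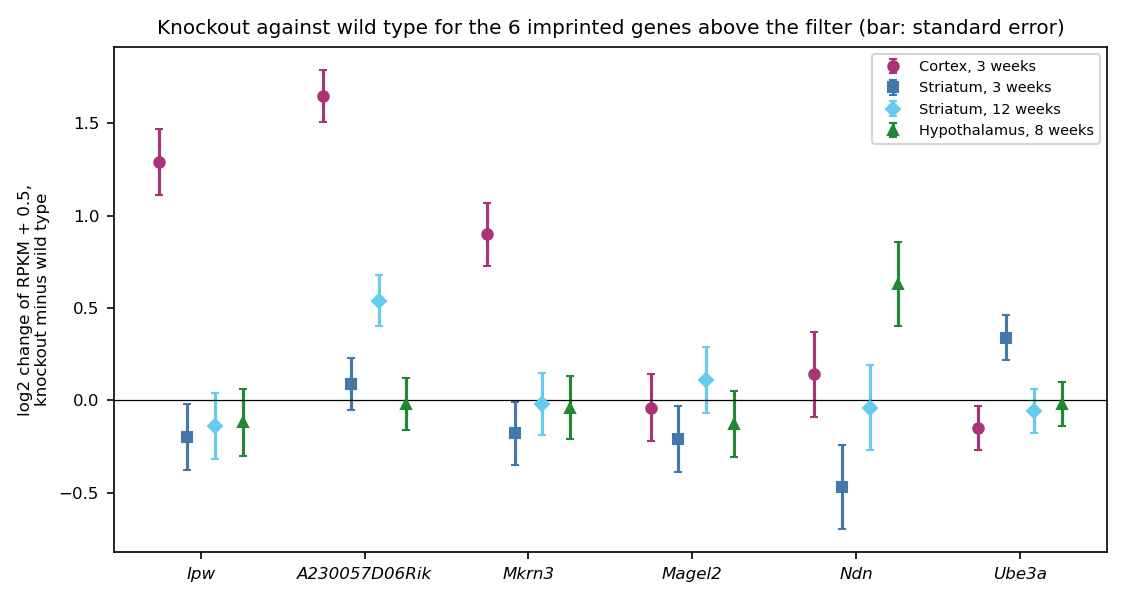
Difference of log2(RPKM + 0.5), knockout minus wild type (vertical axis), for the 6 genes above the filter, with standard errors as bars and 1 symbol for each region and age set. Cortex values of Ipw, A230057D06Rik and Mkrn3 lie at 1.29, 1.65 and 0.90, and their values in the other sets lie between -0.20 and 0.54.

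Magel2 and Ndn are neighbouring genes for related MAGE-family proteins, and both are known for expression in hypothalamic neurons. Magel2, whose protein works with a ubiquitin ligase in recycling membrane proteins, was at 5.15 and 5.11 RPKM in wild-type hypothalamus and at most 0.427 in any of the 12 other libraries. Ndn, which encodes necdin, was at 254 and 253 RPKM in wild-type hypothalamus, against 30.5 and 32.8 in wild-type striatum at 12 weeks. Neither gene had a hypothalamic library near the range of the other tissues. Against wild-type striatum at 12 weeks, hypothalamus was higher by 2.98 for Ndn (SE 0.23, limma adjusted p = 1.35e-07, ratio of means 8.02). For Magel2 the difference was 3.20 (ratio of means 44.4), given with no p, since Magel2 entered the fit only through the hypothalamus libraries and so had to differ. Strain, age and region differ together in this comparison and cannot be told apart.

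In the same comparison 4 of the 6 tested genes were called, all higher in hypothalamus, where 54.5% of tested genes were called higher and 64.8% in either direction. The median of all genes was 0.49, and the count includes Magel2, so nothing is read from it. The others were A230057D06Rik (0.67, SE 0.14, limma adjusted p = 0.00109) and Ube3a (0.39, SE 0.12, limma adjusted p = 0.0133). With median-ratio scaling, which moves the median of all genes to 0.03 and the split of calls from 6731 higher and 1265 lower to 3422 and 3062, Magel2 (2.89) and Ndn (2.46) were the 2 genes still called, A230057D06Rik was at 0.19 and Ube3a at -0.13. Ube3a was also not called without wild-type striatum replicate 1 (limma adjusted p = 0.0642) or either wild-type hypothalamus replicate (0.059 and 0.058). Mkrn3 (0.39, limma adjusted p = 0.0546) and Ipw (0.15, limma adjusted p = 0.479, and -0.39 with median-ratio scaling) were not called.

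The start windows of the 2 neighbours are shown because their hypothalamic levels are so alike in pattern, with CG pairs in capitals and from the same RefSeq build.
Ndn, chr7:62348027-62348326, plus strand: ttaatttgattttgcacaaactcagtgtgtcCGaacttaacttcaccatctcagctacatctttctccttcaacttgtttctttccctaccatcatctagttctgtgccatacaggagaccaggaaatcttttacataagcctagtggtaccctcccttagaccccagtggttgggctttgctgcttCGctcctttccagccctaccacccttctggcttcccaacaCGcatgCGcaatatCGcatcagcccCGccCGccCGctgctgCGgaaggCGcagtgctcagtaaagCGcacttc
Magel2, chr7:62376729-62377028, plus strand: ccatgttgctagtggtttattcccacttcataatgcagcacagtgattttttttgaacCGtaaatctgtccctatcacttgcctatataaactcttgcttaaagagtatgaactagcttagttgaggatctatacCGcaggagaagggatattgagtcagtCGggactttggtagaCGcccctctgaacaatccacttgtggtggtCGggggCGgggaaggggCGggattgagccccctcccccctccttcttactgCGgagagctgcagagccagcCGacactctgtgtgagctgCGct
They hold 11 and 10 CG pairs, at the 60.4 and 58.6 percentiles. The sequence GCATGCG occurs in the Ndn window and in all 4 start windows listed for Snrpn, counting both strands, but not in that of Magel2 or the other 5 genes. It occurs in 3.57% of all windows. A match is a run of letters and says nothing of a bound factor.

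By knockout, Ndn was separated without overlap in opposite directions in 2 sets and was called in none. In hypothalamus the wild-type libraries were at 254 and 253 RPKM and the knockout libraries at 355 and 435. Both knockout libraries were above, with a ratio of means of 1.56 and a log2 difference of 0.63 (SE 0.23, unadjusted p = 0.0153, limma adjusted p = 1). In striatum at 3 weeks it was at 56.0 and 56.5 against 33.6 and 48.5, both knockout libraries being below (-0.47, SE 0.23, unadjusted p = 0.0561, limma adjusted p = 0.619). Striatum at 12 weeks showed no separation, with 30.5 and 32.8 against 31.0 and 30.6 (-0.04, limma adjusted p = 0.997). The mean outside cortex was 0.04, with an exact permutation p of 0.87. Cortex values overlapped, at 51.0 and 62.8 against 79.9 and 49.0. Magel2 in hypothalamus was at 4.78 and 4.50 in the knockout libraries, both below the wild-type 5.15 and 5.11 (-0.13, SE 0.18, limma adjusted p = 1). It was low elsewhere: 0.228 and 0.353 against 0.427 and 0.132 in cortex, 0.175 and 0.293 against 0.131 and 0.137 in striatum at 3 weeks, and 0.0786 and 0.152 against 0.0965 and 0.237 at 12 weeks. Those values rest on 8 to 48 reads a library, and only the 3-week striatum libraries were separated by genotype (-0.21, limma adjusted p = 0.647).

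One cortex library stood apart in markers of hypothalamic neurons. Summed RPKM of 10 hypothalamic neuron markers was 10.2 in knockout cortex replicate 1, with none at 0, against 2.30 in knockout replicate 2 (Avp and Otp at 0) and 1.62 and 2.37 in the wild-type libraries (Hcrt and Otp at 0 in both, Pmch also in replicate 2). The hypothalamus libraries had 255 to 297. That cortex library also had the highest cortex Ndn (79.9) and Magel2 (0.427). Without it the cortex difference was -0.21 for Ndn and -0.32 for Magel2, in place of 0.14 and -0.04. For Ipw, A230057D06Rik and Mkrn3 the differences without it were 1.38, 1.57 and 0.88, in place of 1.29, 1.65 and 0.90. The part of hypothalamic RNA in any of these values was not tested.

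Ube3a, which encodes a ubiquitin ligase, ran from 7.83 to 15.9 RPKM over the 16 libraries. Its values in the 4 hypothalamus libraries (15.0 to 15.9) lay above those in the other 12 (7.83 to 13.5). In striatum at 3 weeks it was at 8.42 and 7.83 in the wild-type libraries and at 10.8 and 10.1 in the knockout ones. The knockout libraries were higher without overlap (0.34, SE 0.12, unadjusted p = 0.0147, limma adjusted p = 0.619, and 0.49 with median-ratio scaling). Cortex went the other way, at 13.5 and 11.6 against 10.9 and 11.6, a log2 difference of -0.15. At 12 weeks striatum gave 11.6 and 12.2 against 11.4 and 11.3 (-0.06, limma adjusted p = 0.989), and hypothalamus 15.7 and 15.6 against 15.9 and 15.0 (-0.02, limma adjusted p = 1). The age term for knockout in striatum was -0.40 (unadjusted p = 0.0361, limma adjusted p = 0.532).

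Snhg14, the antisense transcript, overlaps Ube3a, Ipw, Snurf and Snrpn in the annotation, and the table's treatment of strand is not given, so reads of these genes may not be separated. Snhg14 was at 6.45 and 6.48 RPKM against 10.6 and 8.18 in striatum at 3 weeks, higher in the knockout libraries like Ube3a (0.49, SE 0.19, limma adjusted p = 0.619). In cortex it was at 11.5 and 9.37 against 8.84 and 11.1, with overlap, where Ipw was higher without overlap (Snhg14 log2 difference -0.07, limma adjusted p = 0.999). In these 3-week sets the knockout differences of Snhg14 thus did not match those of Ipw, with which its annotated span overlaps.

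Snrpn and Peg12 were below the filter and were tested by permutation only. Snrpn, which encodes a core protein of the splicing machinery in neurons, was at 0.0466 to 0.530 RPKM, or 2.5 to 28.5 reads. Snurf, which shares its transcript with Snrpn, was listed at 0 in 14 libraries and reached at most 0.0117. Because these rows overlap each other and Snhg14, and a near-identical paralog (Snrpb) exists, the low Snrpn values are uncertain. Snrpn was at 0.313 and 0.352 against 0.247 and 0.151 in cortex, 0.230 and 0.287 against 0.226 and 0.195 in striatum at 3 weeks, 0.135 and 0.0466 against 0.189 and 0.0535 at 12 weeks, and 0.416 and 0.324 against 0.433 and 0.530 in hypothalamus. Knockout libraries were thus below in the 3-week sets, above in hypothalamus and overlapping at 12 weeks, and the mean outside cortex was 0.05 (exact permutation p = 0.546). Peg12, an intronless gene for a FRAT-family protein that binds the kinase GSK3, was at 0.0134 and 0.0519 RPKM in wild-type cortex and at 0.137 and 0.103 in knockout cortex. These are 1 and 4 reads against 8 and 8, with exact 95% Poisson intervals of 0.0253 to 5.57, 1.09 to 10.2 and 3.45 to 15.8, so the intervals of wild-type and knockout libraries overlap. Outside cortex Peg12 reached 0.0322 to 0.283, overlapped between genotypes in each set, and gave a mean of 0.02 (exact permutation p = 0.769).

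Over the 6 tested genes, no knockout call was made by limma in striatum at 3 weeks, striatum at 12 weeks or hypothalamus, where 0.0324%, 0.0405% and 0.00810% of all tested genes were called. An unadjusted p under 0.05 was reached by 1 gene in each set, Ube3a, A230057D06Rik and Ndn in that order, and by 932, 543 and 217 of all 12348 genes. Nor was any of the 6 called for the mean of these sets (0.121% of all genes) or for the age term in striatum (0% of all genes). Of the 8 genes, Ube3a was above and Magel2, Ndn and Snrpn were below without overlap in striatum at 3 weeks, against 10.3% and 23.9% of tested genes. A230057D06Rik was above and Ube3a below at 12 weeks, against 19.9% and 8.16%. Ndn and Snrpn were above and Magel2 below in hypothalamus, against 9.65% and 24.6%. No gene was separated in the same direction in all 4 sets.

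Several of these genes differed between the ages in striatum. By the step estimate the wild-type libraries held 35635562 and 34378551 reads at 3 weeks and 21830346 and 22536006 at 12 weeks. Depth and age thus cannot be told apart. Between wild-type striatum at 3 and at 12 weeks, Ipw rose from 69.8 ± 11.2 to 252 ± 26.9 RPKM (SD, n = 2), a ratio of 3.61 and a log2 difference of 1.85 (SE 0.18, limma adjusted p = 1.02e-05). The knockout libraries of the same ages gave a ratio of 3.80. The library values, 77.7 and 61.9 at 3 weeks and 271 and 233 at 12 weeks, did not overlap. Mkrn3 fell from 0.878 ± 0.176 to 0.292 ± 0.0310 (-0.79, SE 0.17, limma adjusted p = 0.00366), so that Ipw and Mkrn3, both higher in knockout cortex, moved in opposite directions with age. Ndn fell from 56.2 ± 0.370 to 31.7 ± 1.68 (-0.82, SE 0.23, limma adjusted p = 0.016), and Ube3a rose from 8.12 ± 0.414 to 11.9 ± 0.422 (0.52, SE 0.12, limma adjusted p = 0.00669). A230057D06Rik (0.23, limma adjusted p = 0.22) and Magel2 (-0.25, limma adjusted p = 0.294) were not called.

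These were 4 of 6 tested genes, 2 higher and 2 lower at 12 weeks, where 31.5% of all tested genes were called, 7.16% higher and 24.4% lower, and the median of all genes was -0.23. Median-ratio scaling moved that median to 0.03 and the split of all calls from 884 higher and 3011 lower to 2457 and 1935. It kept the 4 calls in their directions (Ipw 2.17, Ube3a 0.83, Mkrn3 -0.65, Ndn -0.50) and added A230057D06Rik (0.51, limma adjusted p = 0.0144). The Ndn call was lost without wild-type replicate 1 or 2 at 3 weeks (limma adjusted p = 0.0535 and 0.0863) or replicate 1 at 12 weeks (0.0985), and that of Ube3a without replicate 2 at 3 weeks (0.0645), which left 2 calls, Ipw and Mkrn3. Over all alternatives the adjusted p ran from 0.00155 to 0.0985 for Ndn and from 0.000911 to 0.0936 for Ube3a. Cell type markers differed as well. All 10 oligodendrocyte markers were lower at 12 weeks, with a summed RPKM of 532 to 577 against 2839 to 3617 at 3 weeks. All 6 astrocyte markers were lower too. With median-ratio scaling 10 and 5 of these markers were called lower, where 15.8% of all tested genes were. So were 4 of 6 oligodendrocyte precursor and 6 of 7 microglia markers. Called higher were 3 of 6 neuron, 2 of 6 cortical excitatory neuron and 3 of 8 striatal projection neuron markers, where 20.1% of all tested genes were. None of the oligodendrocyte markers was at 0. The part of this in the age differences was not tested.

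The wild-type libraries of cortex and striatum at 3 weeks share strain and age. A230057D06Rik was lower in cortex by 1.36 on the log2 scale (0.774 ± 0.0438 against 2.79 ± 0.358 RPKM), and Ube3a higher by 0.60. Ipw (0.21), Mkrn3 (-0.37), Magel2 (0.11) and Ndn (0.01) differed by less. In this comparison 2 of 6 genes were called, A230057D06Rik lower and Ube3a higher, where 43.5% of all tested genes were called (20.6% higher and 22.9% lower), and nothing is read from it because the wild-type cortex libraries were used in choosing the genes.

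Ordered by group mean, Ipw formed an upper tier of the 8- and 12-week groups (229 to 279 RPKM, each overlapping its neighbour), then knockout cortex alone at 198, then the 3 other 3-week groups (60.3 to 80.6), which overlapped each other in turn. A230057D06Rik was highest in the hypothalamus groups (5.65 and 5.53), then knockout striatum at 12 weeks (5.12), then a run of 4 groups from 3.50 to 2.79 in which each overlapped the next, and last wild-type cortex (0.774). Mkrn3 was highest in knockout cortex, then in striatum at 3 weeks (0.878 and 0.716), and lowest in striatum at 12 weeks (0.292 and 0.284), with wild-type cortex and hypothalamus between. Ndn and Magel2 had the hypothalamus groups first. Ndn was lowest in the 2 overlapping 12-week striatum groups (31.7 and 30.8). For Ube3a the hypothalamus groups came first and wild-type striatum at 3 weeks last.

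Other rows of the region, imprinted or not, were set beside the 8 genes. Of 45 other names written down for the region, 40 were rows of the table and 21 were tested. In knockout cortex none of the 21 was called by limma, and their median difference was 0.02, against -0.02 for all genes. Only 0.0405% of all tested genes were called there, so nothing is read from the lack of calls. Snhg14 is the nearest tested neighbour of Ipw, and Mir344-2 and the non-coding transcript A330076H08Rik follow A230057D06Rik. A330076H08Rik was at 5.33 and 4.25 RPKM against 3.89 and 6.36 in cortex, which overlap. Gabra5, for a GABA-A receptor subunit, had the smallest p of the 21, with a log2 difference of -0.36 (SE 0.13, limma adjusted p = 0.591). The Snord116 rows, small nucleolar RNAs of the Prader-Willi critical segment, were listed at 0 in this table. Of 13 Mir344 rows, 6 were listed at 0 in all 16 libraries. The only Mir344 row above the filter, Mir344-2, was listed at 0 in 8 libraries and at most 2.30 in the others. In striatum at 3 and 12 weeks and in hypothalamus none of the 21 was called by knockout either, where 0.0324%, 0.0405% and 0.00810% of all tested genes were.

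**Figure D3:**
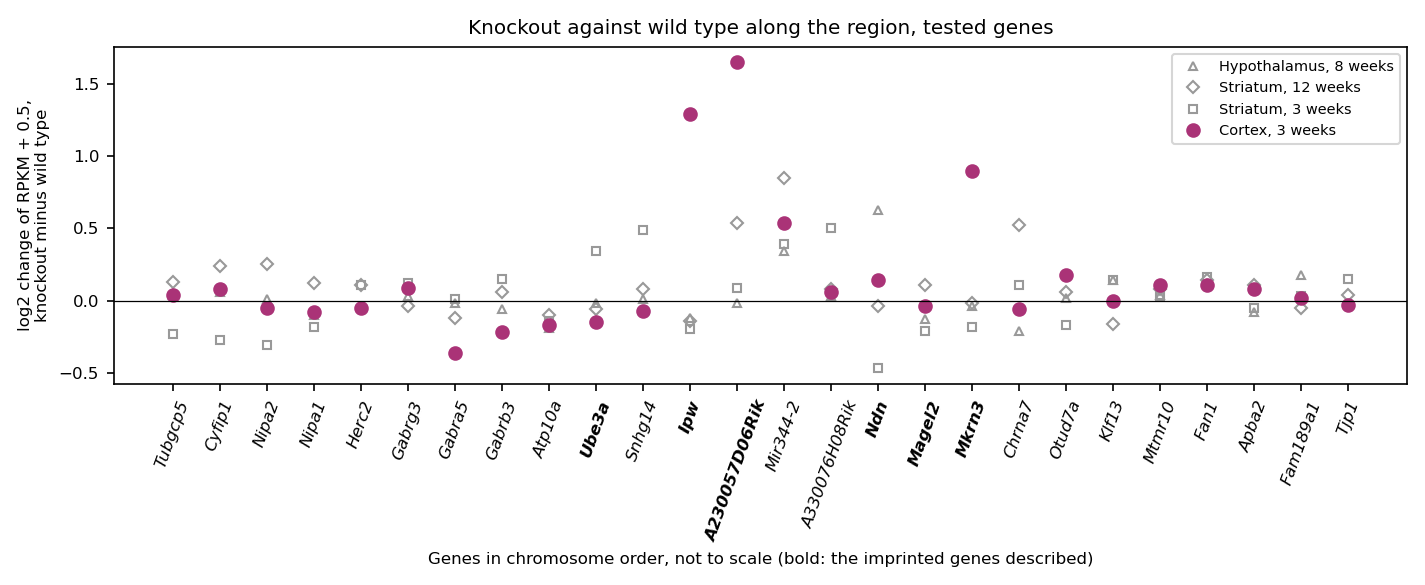
Difference of log2(RPKM + 0.5), knockout minus wild type (vertical axis), for tested genes of the region in chromosome order (horizontal axis, not to scale), with filled circles for cortex and open symbols for the other sets. In cortex Ipw, A230057D06Rik and Mkrn3 stand at 1.29, 1.65 and 0.90 among neighbours such as Snhg14 (-0.07) and Ndn (0.14).

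With age in wild-type striatum, 1 of the 21 neighbours rose and 6 fell, where 7.16% of all tested genes rose and 24.4% fell. Snhg14 was the one that rose, from 6.46 to 10.1 RPKM (0.59, SE 0.19, limma adjusted p = 0.0321, and 0.90 with median-ratio scaling), alongside Ipw and Ube3a, which it overlaps. Nipa1, for a magnesium transporter, had the smallest p of those that fell, from 16.9 to 8.67 (-0.93, limma adjusted p = 0.00127). In wild-type hypothalamus against striatum at 12 weeks 11 were higher and 3 lower, where 54.5% and 10.2% of all genes were, but 3 and 6 with median-ratio scaling, among them Gabra5 higher under both (10.2 against 2.59 RPKM, 1.8 and 1.32).

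Imprinted genes elsewhere in the genome were set beside them, 53 of 64 rows being tested. In knockout cortex none was called by limma, where 0.0405% of all tested genes were, and their median was -0.04. With median-ratio scaling 1 was called higher and 1 lower in cortex, where 0.115% and 0.188% of all tested genes were. Igf2, the paternally expressed growth factor, was at 6.57 against 3.86 RPKM (0.69, SE 0.17, limma adjusted p = 0.201, or 0.72 and 0.0398 with median-ratio scaling). Htr2a, for a serotonin receptor, was at 3.29 against 6.19 (-0.82, limma adjusted p = 0.125, or -0.80 and 0.0289). Within single sets outside cortex the only call was Htr2a, lower in knockout striatum at 3 weeks (3.39 against 9.20 RPKM, limma adjusted p = 0.0117) and at 12 weeks (1.07 against 4.94, limma adjusted p = 0.000835). With age in wild-type striatum, Meg3 and Kcnq1ot1, long non-coding RNAs of other imprinted domains, rose like Ipw. Meg3 went from 21.9 to 53.4 RPKM (1.26, limma adjusted p = 0.000575) and Kcnq1ot1 from 1.24 to 2.96 (0.98, limma adjusted p = 0.00604), both also called with median-ratio scaling (1.58 and 1.25). Over the list 3 rose and 14 fell, but 11 rose and 11 fell with median-ratio scaling, so no direction is given for the list.

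These other imprinted genes were also compared between wild-type hypothalamus and wild-type striatum at 12 weeks. Of 53, 41 were called higher and 4 lower in hypothalamus, where 54.5% and 10.2% of all tested genes were. Their median was 0.86 against 0.49 for all genes. With median-ratio scaling 24 of 52 were called higher and 8 lower, where 3422 and 3062 of all 12227 tested genes were. The median was then 0.36 against 0.03. The counts include genes that entered the fit only through hypothalamus and so had to differ, so nothing is read from the counts. Asb4 (6.71 against 0.0449 RPKM), Zim1 (7.63 against 0.258), Nap1l5 (158 against 15.4), Dlk1 (4.40 against 0.185) and Peg3 (166 against 33.1) were called under both scalings. Asb4, Zim1 and Dlk1 were under 1 RPKM in every other library and, like Magel2, entered the fit only through hypothalamus. In the order named first, the log2 differences were 3.72, 3.42, 3.33, 2.84 and 2.30, beside 3.20 and 2.98 for Magel2 and Ndn. The genes were named for a small p or a large change, so nothing is read from the likeness in size. Of 30 genes for proteins that set or read imprints and silence chromatin, 26 were tested and none was called by knockout in any set. Only 0.00810% to 0.0405% of all tested genes were called in these sets, so nothing is read from the lack of calls. Dnmt3a, a DNA methyltransferase, was at 13.4 against 8.42 RPKM in cortex (0.64, SE 0.13, limma adjusted p = 0.125). Zfp57, a zinc-finger protein that protects imprints, was at 1.67 against 1.26 (0.29, limma adjusted p = 0.808).

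Marker genes of cell types differed between knockout and wild-type cortex alongside Ipw, A230057D06Rik and Mkrn3. Of all tested genes 9.30% had both knockout cortex libraries above both wild-type libraries, and 21.6% had both below. Of 10 oligodendrocyte markers 9 had both knockout libraries above both wild-type libraries, and their summed RPKM was 1272 to 1334 against 731 to 855. All 6 oligodendrocyte precursor markers were above (summed RPKM 72.8 to 96.9 against 49.3 to 61.2), and 7 of 8 striatal projection neuron markers were below (52.5 to 74.3 against 85.2 to 102). General neuron markers were lower in sum (439 to 442 against 501 to 515), and endothelial (32.3 to 45.3 against 25.3 to 31.0) and choroid plexus markers (27.3 to 27.4 against 12.9 to 19.7) higher, with 3 of 6 neuron markers below, 3 of 5 endothelial markers above and 2 of 3 tested choroid plexus markers above. None of the markers of these 6 lists was at 0 in cortex. None was called singly by limma, but with median-ratio scaling Mog, Mag, Cnp and Gpr17 were called higher and Penk lower. Of 6 cortical excitatory neuron markers 2 were below and none above (summed RPKM 198 to 228 against 225 to 230). Of 6 astrocyte markers 1 was below and none above, and of 7 microglia markers 2 were above and none below. The part of cell types in the cortex difference was not tested.

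**Figure D4:**
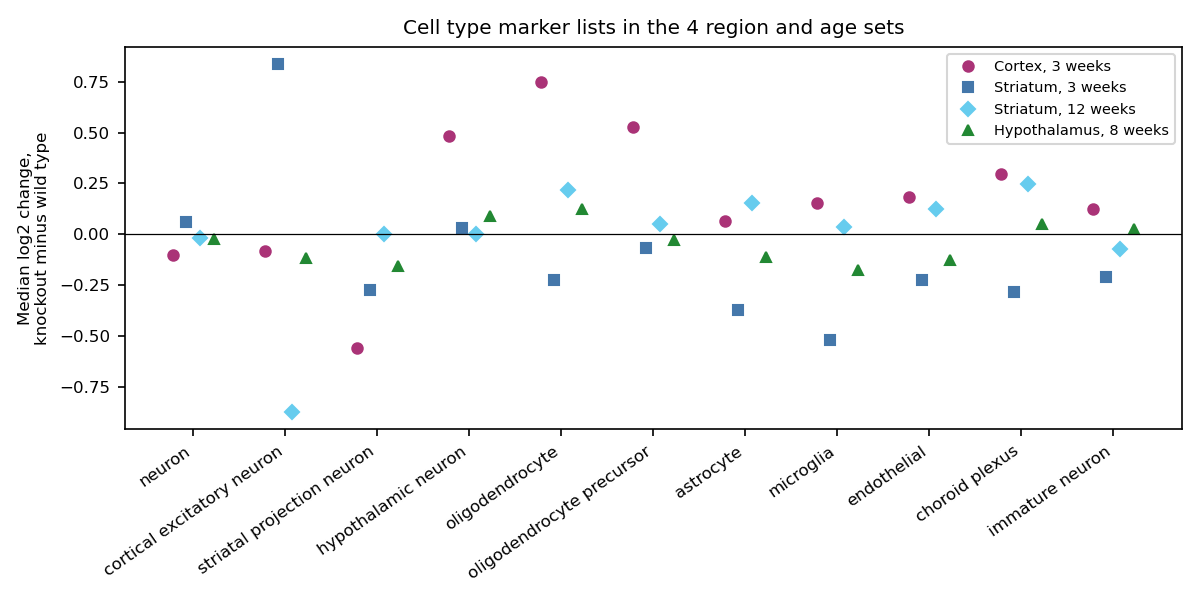
Median log2 difference, knockout minus wild type (vertical axis), of 11 lists of cell type markers (horizontal axis) in the 4 sets, 1 symbol each. Oligodendrocyte markers stand at 0.75 in cortex, and cortical excitatory neuron markers at 0.835 and -0.872 in striatum at 3 and 12 weeks.

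The striatum sets had their own shift of markers. At 3 weeks 5 of 6 cortical excitatory neuron markers were above in the knockout libraries (summed RPKM 23.1 to 29.4 against 15.6 to 22.3) and 1 below, where Ube3a was also above. Of 7 microglia markers 6 were below there, and of 6 astrocyte markers 5 were below. Of all tested genes 10.3% were above and 23.9% below. At 12 weeks all 6 cortical excitatory neuron markers were below (12.7 to 13.3 against 18.1 to 28.0), where A230057D06Rik was above and 8.16% of all tested genes were below. Wild-type cortex held 225 to 230. In hypothalamus, where Ndn was above, the hypothalamic neuron markers summed to 255 to 277 in the knockout and 268 to 297 in the wild-type libraries. Their part in these differences was not tested.

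Across the 16 libraries Ipw levels followed those of Lrrn4cl most closely (Pearson r = 0.952), then Gm13826 (0.928) and Ccar1 (0.896). Magel2 followed Prph (0.997), Arhgap36 (0.996) and Gabrq (0.996), and Ndn followed Trh (0.984), the gene of thyrotropin-releasing hormone. Magel2 and Ndn correlated at 0.963. Ube3a followed Usp9x (0.984), Rif1 (0.972) and Zfp518a (0.961). Mkrn3 followed Cd93 (0.912), Nid1 (0.907) and Bdh1 (0.906), of which Cd93 and Nid1 are known from blood vessels. Ipw and Mkrn3 did not follow each other in level (-0.33). After subtraction of each set's mean they correlated at 0.833, Ipw and A230057D06Rik at 0.802, and A230057D06Rik and Mkrn3 at 0.776. On this measure the closest of all tested genes outside the 8 followed each of the 3 more closely. The highest value over so many genes can exceed that of a few, so nothing is read from this. For Ipw the closest were Slc6a13 (0.885), the oligodendrocyte marker Ugt8a (0.882) and Kdr (0.876). A230057D06Rik followed Dnmt3a (0.884), Slc6a13 (0.869) and Vwf (0.864), and Mkrn3 followed Tspan18 (0.927), Cd93 (0.893) and Nes (0.890). These are descriptions over 16 libraries that share sets, depth and cell makeup. The cortex libraries that chose the genes weigh most in the values taken after subtraction of set means.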

How the data were processed

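RNA from flash-frozen brain tissue, extracted with Trizol, was sequenced as 16 libraries in 8 groups of 2. The tools named per the submitters' processing notes are cutadapt 1.6, TopHat2 and CASAVA 1.8.2, and the build is mm9. The authors deposited 1 table of RPKM per gene; the sources used here do not give the read counter, its use of strand or its treatment of reads with several matches. From it log2(RPKM + 0.5) was computed for 12348 of 24176 genes with at least 1 RPKM in 2 or more libraries. A model of 8 group means over all 16 libraries was fitted with limma 3.58.1 (R 4.3.3) with trended variance and 8 residual degrees of freedom, and p-values were adjusted by Benjamini-Hochberg over all tested genes (threshold 0.05). It was tested on simulated data. Means over the 3 sets outside cortex were tested by exact two-sided permutation within sets. Depth was recovered from single-exon genes, of which 94.6% to 98.1% fell on whole or midway read steps within 0.05 read; read intervals (95%, exact Poisson) cover counting error only. Python 3.11.15, numpy 2.4.6 and pandas 2.3.3 were used. Alternatives were other pseudocounts and filters, median-ratio scaling, untrended variance, the compared libraries alone, replicate blocks and leaving out each library.

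The members and lists were chosen with earlier results of these data known. The text names the 8 genes in every comparison, overlapping or adjacent neighbours, listed genes with the smallest p or the largest called change, and by likeness the genes of highest correlation. Listed genes beyond these, and the motifs, were named after their values were seen.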

Additional observations from a re-analysis of the deposited data

Results flagged for a closer look

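The knockout difference in cortex exceeded the mean of the 3 other sets by 1.45 on the log2 scale for Ipw and by 1.44 for A230057D06Rik. Cortex chose both genes, so these are descriptions with no test.

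Ndn had every knockout library above the wild-type libraries in hypothalamus and every one below in striatum at 3 weeks, a difference between the effects of 1.10 that was not tested. Snrpn had its knockout libraries above in hypothalamus and below in cortex and in striatum at 3 weeks, with differences between the effects of 0.43 and 0.27 that were not tested and rest on few reads. Ube3a had its knockout libraries above in striatum at 3 weeks and below in cortex, a difference of 0.49 that was not tested.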

How the results depend on the processing

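Of the log2 values of the 6 tested genes recomputed under the alternatives, 854 kept their direction and side of the threshold, 30 lost a call, 5 gained one and 35 reversed. The cause was not tested where a value changed. In cortex 2 of the 6 genes were called, against 1 with a replicate block, 0 with the compared libraries alone (4 libraries in place of 16) and 1 to 1 without single libraries. It was 3, with Mkrn3 added, with median-ratio scaling and with a block of crossed replicate numbers. These cortex counts, and those against the other sets, describe the values that chose the genes and are no test of them. For cortex against the other sets 2 became 1 with median-ratio scaling, 0 with the replicate block and 0 to 2 without single libraries. For age in wild-type striatum 4 became 5 with median-ratio scaling, 5 with no filter, which admits Peg12, and 2 to 4 without single libraries. For wild-type hypothalamus against striatum 4 became 2 with median-ratio scaling and 3 to 4 without single libraries. There it was 5 with a pseudocount of 0.1, and 6 with no filter, which admits Snrpn and Peg12. In cortex against the other sets Magel2 reversed to -0.02 with a pseudocount of 0.1 and to -0.01 with median-ratio scaling. That scaling also reversed A230057D06Rik (0.04) and Ube3a (0.05) by knockout in hypothalamus, the striatal age term of Ipw (-0.21), and Ipw (-0.39) and Ube3a (-0.13) in wild-type hypothalamus against striatum. Leaving out single libraries gave, in cortex, -0.21 to 0.49 for Ndn and -0.32 to 0.23 for Magel2; against the other sets, -0.24 to 0.31 for Magel2 and -0.25 to 0.45 for Ndn; and in wild-type cortex against striatum, -0.01 to 0.22 for Magel2 and -0.14 to 0.16 for Ndn. In striatum it gave -0.04 to 0.22 for A230057D06Rik at 3 weeks, -0.11 to 0.08 for Mkrn3, -0.09 to 0.02 for Ndn and -0.04 to 0.26 for Magel2 at 12 weeks, and -0.10 to 0.23 for the age term of Ipw. In hypothalamus it gave -0.13 to 0.08 for A230057D06Rik, -0.27 to 0.18 for Mkrn3 and -0.06 to 0.02 for Ube3a, and over the sets outside cortex -0.05 to 0.13 for Ndn.

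Counts over all genes were small by knockout and moved with the setting. Cortex gave 5, against 8 with a pseudocount of 1, 34 with no filter, 37 with median-ratio scaling, 3 with the replicate block and 0 with the compared libraries alone. Striatum at 3 weeks gave 4, 1 with the block and 0 alone. Striatum at 12 weeks gave 5, 10 with median-ratio scaling, 1 with the block and 13 alone. Hypothalamus gave 1, 4 with no filter, 10 alone and 0 with a pseudocount of 0.1, a filter of 0.5 RPKM, median-ratio scaling or the block. The striatal age term gave 0, 2 with no filter and 11 without wild-type striatum at 12 weeks replicate 1. For cortex against the other sets 4 became 21 with no filter, 8 with median-ratio scaling and 2 with the block. The wild-type age count of 3895 became 1549 without wild-type striatum replicate 2 at 3 weeks and 1494 without replicate 1 at 12 weeks. Whether replicate numbers pair the libraries was not settled. Same-numbered deviations correlated at -0.34, 0.44, -0.22 and 0.15 in cortex, striatum at 3 and 12 weeks and hypothalamus, with no common sign. A block with numbers crossed in the sets below -0.1, chosen after seeing the data, called 42, 30, 4 and 0 genes in these sets. Low read numbers limit Mkrn3, Snrpn and Peg12, and Magel2 outside hypothalamus.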
